A study of Mus musculus with 10 samples.

Results

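MAF9 cells treated with EPZ5676, an inhibitor of the histone methyltransferase DOT1L, were compared with MAF9 cells given the vehicle DMSO. The libraries were chosen by the agent and condition in their labels, 2 labelled EPZ and 2 labelled DMSO, which makes 4 of the 10 libraries of the series. MAF9 cells come from mouse bone marrow and carry, by transduction, MLL-AF9, a fusion oncogene found in acute myeloid leukemia. The series measured RNA by sequencing after treatment with 1 of 4 inhibitors or with DMSO, 2 libraries for each of 5 conditions. The other 6 libraries came from cells given MM-401, which blocks binding of WDR5 to MLL1, MI, which blocks binding of menin to MLL proteins, or iBET, which blocks the bromodomains of BET proteins.

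Both groups had the C57BL/6 genotype and the MLL-AF9 transduction, so that the oncogene was present in the DMSO control as well. They were treated for 4 days and grown in Iscove's medium with 15% FBS, to which interleukin-3 was added at 10 ng/ml. By the labels each inhibitor was used at its IC50, and no concentration is given there. The series design calls the libraries of a condition biological duplicates. How the cultures were split is not stated, so p-values measure the spread between these libraries. The libraries hold 23717378 (DMSO 1), 20394762 (DMSO 2), 21249483 (EPZ 1) and 23505117 (EPZ 2) reads counted in genes.

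DOT1L adds methyl groups to H3K79 in the bodies of transcribed genes. MLL-AF9 brings DOT1L and factors of transcription elongation to its targets, among them Meis1 and genes of the Hoxa cluster, which keep myeloid progenitors in an immature state. Maturing neutrophils make the proteins of primary granules first, those of secondary granules later, and the receptors of the mature cell last.

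Levels are given as CPM, read counts scaled to a library total of 1000000 after TMM scaling, which corrects the totals for genes of very high count. In CPM 1 read equals 0.0389 in DMSO 1, 0.0479 in DMSO 2, 0.0485 in EPZ 1 and 0.0471 in EPZ 2. The values of a gene are listed for DMSO 1 and DMSO 2 and then, after "against", for EPZ 1 and EPZ 2. Changes are log2 fold changes of EPZ5676 over DMSO with their standard error after "±", from edgeR's quasi-likelihood test on all 10 libraries. A gene was called, and is said to have risen or fallen, when its p-value adjusted by Benjamini-Hochberg over 12971 genes tested was below 0.05. Groups are said to lie apart when both EPZ libraries were above, or both were below, each of the DMSO libraries. The standard errors come from a spread that the 5 conditions share, and intervals given for low counts cover counting error alone.

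The DMSO libraries stood apart from each other. DMSO 2 held 3630 reads in 4 Y-linked genes, whereas DMSO 1, EPZ 1 and EPZ 2 held 1, 1 and 0. Xist, the noncoding RNA of the inactive X chromosome, stood at 2818 and 4.65 against 1576 and 1026 CPM. In Y-linked reads and in the presence of Xist the EPZ libraries were like DMSO 1. Of the genes tested, 19.3% differed by more than 2-fold between the DMSO libraries and 5.71% between the EPZ libraries. Values without DMSO 2 are therefore printed beside most of the others, and called genes are named where leaving out a library ended the call or moved the log2 fold change by more than 1.5 times. The change of Xist was 8.13 without DMSO 1 and −1.09 without DMSO 2. The 5 tested genes of the sex-linked list (Xist and genes that escape inactivation) included no call with both DMSO libraries, but 2 were higher without DMSO 1, and 1 higher and 2 lower without DMSO 2. Ddx3x, an RNA helicase gene that escapes inactivation, stood at 515 and 884 against 663 and 738 CPM, with overlapping groups. The myeloid markers were present in all 4 libraries: Ptprc, the leukocyte antigen CD45, stood at 434 and 489 against 801 and 875 CPM, and Spi1, the myeloid transcription factor PU.1, at 195 and 251 against 399 and 511 CPM.

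Of the 12971 genes tested, 18.7% were called higher and 19.4% lower with EPZ5676, while 31.6% lay apart above DMSO and 33.0% lay apart below it. Genes both called and apart numbered 2430 higher and 2507 lower, 5 called genes had overlapping groups, and 4583 genes overlapped. The upward differences were wider: the gap between the nearer libraries of the groups exceeded 2-fold in 1008 genes that rose and 318 that fell, and 4-fold in 361 and 20. Without DMSO 2, when 18.9% and 16.6% of 13242 genes were called higher and lower, 2057 of the genes that rose and 1803 of those that fell kept their call, and 3 changed sign. Fitted on the 4 DMSO and EPZ libraries alone, the test called 1174 genes rather than 4942 (6.45% higher and 2.89% lower), and without EPZ 2 it called 2639 (10.4% and 9.30%). The shares were 14.3% and 11.2% without EPZ 1 and 25.5% and 25.5% without DMSO 1, and list counts from these fits stand beside such shares of all genes. The direction of the calls leaned on the scaling. With total counts in place of TMM 34.7% of the called genes were higher, with TMM 49.2%, and the median change of all genes moved from −0.06 to −0.23. A median near −0.06 is therefore the reference for each list. Up to 4 members of a list were named because they were called and apart, and their lying apart follows from that choice. Counts of a list are written as members higher and members lower, and are also given without the other libraries and in the fit of the 4 libraries where these moved the larger count by more than 1.5 times, for all lists but those of other cell types.

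**Figure D1:**
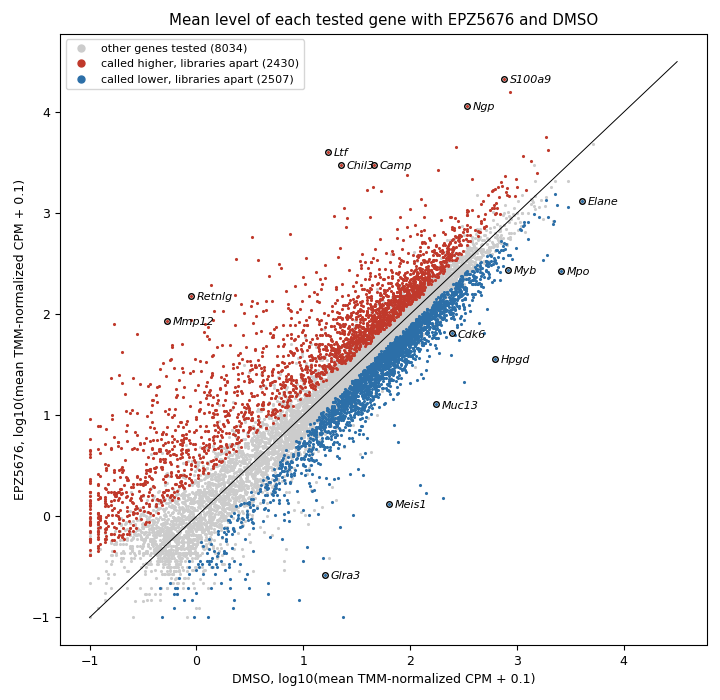
Mean level of each of 12971 genes tested in the EPZ libraries (vertical) against the DMSO libraries (horizontal), in log10 CPM, 1 point a gene. The 2430 genes called higher and apart reach farther from the diagonal than the 2507 called lower and apart.

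Against MM-401, 16.7% of genes were called higher and 16.6% lower with EPZ5676 in the fit of all 10 libraries, whose spread includes that of the DMSO pair. The 4 EPZ and MM-401 libraries fitted alone gave 2877 higher and 2825 lower of 12506. Of the genes called against DMSO, 1792 of 2430 that rose and 1807 of 2512 that fell were called in the same direction against MM-401 in the fit of all 10 libraries. MM-401 is another inhibitor and not a control, and both comparisons share the EPZ libraries.

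More genes of the MLL-AF9 programme fell than rose. The list of known MLL fusion targets holds 36 tested genes, of which 3 rose and 17 fell, with 26 lying apart below DMSO. Over all genes 18.7% rose, 19.4% fell and 33.0% lay apart below DMSO. The median of the fusion targets was −0.89 beside −0.06 over all genes. Without DMSO 2 the counts were 3 and 17 with a median of −0.93, and against MM-401 2 and 17 with a median of −0.96. They fell to 1 and 9 without EPZ 2 (median −0.79) and to 0 and 9 in the fit of the 4 libraries. Summed over the list the level was 5052 and 5285 against 3062 and 2828 CPM. Meis1, the homeobox partner of HOX proteins, stood at 36.4 and 89.9 against 0.679 and 1.79 CPM and fell, with a log2 change of −5.67 ± 0.59, or −4.85 without DMSO 2 (edgeR's quasi-likelihood test, Benjamini-Hochberg adjusted p = 0.000705). Six4, a homeobox transcription factor, stood at 27.8 and 42.8 against 3.93 and 3.62 CPM, with a change of −3.22 ± 0.28 (−2.85 without DMSO 2). Both genes were lower in both EPZ libraries than in either DMSO library.

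Cdk6, a kinase of the G1 phase, stood at 319 and 174 against 64.6 and 64.5 CPM, with a change of −1.93 ± 0.25 (−2.28 without DMSO 2). Myb, a transcription factor of progenitors, stood at 687 and 953 against 271 and 274 CPM (−1.59 ± 0.17, −1.31 without DMSO 2). The EPZ libraries were nearly equal in both genes and lay well below DMSO. Myc stood at 456 and 403 against 254 and 145 CPM (−1.10 ± 0.28, −1.16 without DMSO 2), and Mef2c, a transcription factor of lymphoid-myeloid progenitors, at 25.8 and 37.3 against 15.7 and 17.8 CPM (−0.91 ± 0.29, −0.60 without DMSO 2). The call of Myc was lost without EPZ 2 (adjusted p = 0.0752 in edgeR's quasi-likelihood test after Benjamini-Hochberg), and that of Mef2c without DMSO 2, EPZ 1 or EPZ 2 (adjusted p of 0.152, 0.158 and 0.111 by the same test). Cdkn2c, an inhibitor of CDK4 and CDK6 that is also a known fusion target, stood at 65.03 and 85.3 against 12.8 and 19.9 CPM (−2.20 ± 0.27, −1.97 without DMSO 2), with groups apart.

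With both DMSO libraries Hoxa5, Hoxa7, Hoxa9 and Hoxa10 moved less than Meis1, Six4, Cdk6 and Myb. Hoxa9 stood at 445 and 379.6 against 277 and 288 CPM and fell (−0.55 ± 0.13, −0.63 without DMSO 2, adjusted p = 0.0117 in edgeR's quasi-likelihood test after Benjamini-Hochberg, above the threshold without either EPZ library at 0.0602 and 0.0515). Hoxa5 at 50.5 and 35.96 against 33.8 and 26.7 CPM and Hoxa7 at 25.1 and 50.96 against 23.5 and 22.97 CPM lay apart below DMSO without a call, and Hoxa10 at 305 and 125 against 129 and 141 CPM overlapped. In Hoxa7 and Hoxa10 the DMSO libraries differed by more than 2-fold and the EPZ libraries lay near the lower of them. The log2 changes with both DMSO libraries were −0.52 (Hoxa5), −0.71 (Hoxa7) and −0.68 (Hoxa10). Without DMSO 2 Hoxa5 and Hoxa10 passed the test, with changes of −0.71 and −1.15. Without DMSO 1 Hoxa7 passed it, with a change of −1.13. Hoxa5 and Hoxa7 also passed it with total counts in place of TMM.

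Pbx3, another HOX cofactor, stood at 27.3 and 44.6 against 21.8 and 31.7 CPM, with overlapping groups. Pim1, a serine/threonine kinase, at 590.1 and 479 against 384 and 272 CPM and Jmjd1c, of the histone demethylase family, at 212 and 231 against 208 and 206 CPM were the most abundant members without a call. Bcl2, the inhibitor of apoptosis, stood at 11.6 and 9.44 against 7.13 and 8.66 CPM and was not called. Flt3, a receptor tyrosine kinase, had 0 reads with EPZ5676 and 30 with DMSO, at least 8.99-fold lower when a group at 0 is set to 3 reads. Of the 30 reads 29 were from DMSO 2. Eya1, a transcriptional coactivator, had 0 reads with EPZ5676, 0 in DMSO 1 and 1093 in DMSO 2. Its level against DMSO thus rests on DMSO 2, and it did not pass the filter for testing. Satb1, a chromatin organiser, was the fusion target with the widest upward gap, at 0.312 and 0.911 against 3.69 and 7.49 CPM (3.20 ± 0.76, 4.16 without DMSO 2), and its call was lost without EPZ 2 (adjusted p = 0.0751 in edgeR's quasi-likelihood test after Benjamini-Hochberg).

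**Figure D2:**
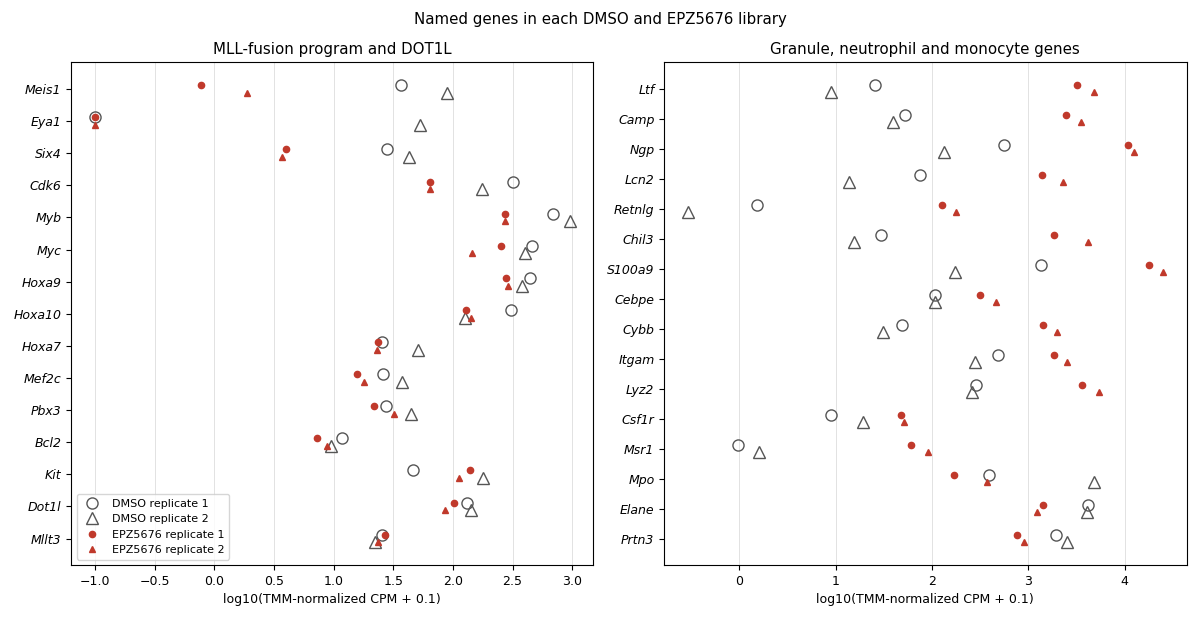
Level of selected genes in each library, in log10(CPM + 0.1), with DMSO as open grey and EPZ as filled red markers, circles for replicate 1 and triangles for replicate 2. Ltf lies at 25.2 and 8.92 against 3194 and 4829 CPM, Meis1 at 36.4 and 89.9 against 0.679 and 1.79 CPM, and for Mpo the DMSO markers are far from each other.

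Genes of the DOT1L complex and of transcription elongation showed smaller changes. Of 28 tested members 4 rose and 7 fell, with a median of −0.14 (3 and 6 without DMSO 2, median 0.00). Over all genes tested the shares were 18.7% and 19.4%. Other fits gave 4 and 10 without DMSO 1, 2 and 5 without EPZ 1, 0 and 4 without EPZ 2, 0 and 1 with 4 libraries, and 0 and 8 with total counts (median −0.31). Dot1l itself stood at 131 and 141 against 103 and 85.1 CPM, below DMSO in both EPZ libraries, and fell (−0.54 ± 0.12, −0.45 without DMSO 2). Its adjusted p was 0.0105, and 0.0635 without EPZ 2 (edgeR's quasi-likelihood test after Benjamini-Hochberg). An inhibitor acts on the enzyme's activity, which RNA does not measure. Eaf1, which binds the elongation factor ELL, stood at 283 and 247 against 113 and 109 CPM and had the widest downward gap of the list (−1.26 ± 0.15, −1.33 without DMSO 2).

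Leo1 and Wdr61, subunits of the PAF1 complex, stood at 46.8 and 51.8 against 33.7 and 29.1 CPM and 73.4 and 72.9 against 40.99 and 51.7 CPM, with changes of −0.65 ± 0.12 (−0.55 without DMSO 2) and −0.66 ± 0.13 (−0.64 without DMSO 2). Mllt1, the reader protein ENL, at 65.03 and 70.1 against 54.8 and 48.6 CPM fell (−0.39 ± 0.13, −0.31 without DMSO 2), a call lost without DMSO 2, EPZ 1 or EPZ 2. Ell3, an elongation factor of low level at 0.896 and 0.288 against 1.89 and 1.93 CPM, rose (1.66 ± 0.56, 1.11 without DMSO 2), a call lost without the same 3 libraries, with total counts and without a filter, and its change was 2.71 without DMSO 1. Not called were Mllt10 (99.8 and 124 against 89.2 and 88.8 CPM), which encodes the DOT1L cofactor AF10, Men1 (81.1 and 76.04 against 76.9 and 59.9 CPM), which encodes menin, and Aff1 (252 and 426 against 257 and 272 CPM), the scaffold of the super elongation complex. Kmt2a, the gene of MLL1, stood at 282 and 269 against 354 and 296 CPM and Mllt3, the gene of AF9, at 25.5 and 22.1 against 27.02 and 23.6 CPM. Neither passed the test, and how many reads of these 2 genes came from the fusion was not tested.

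Among stem and progenitor genes 8 of 20 tested rose and 3 fell, with a median of 0.16 (8 and 1 without DMSO 2, median 0.57). Without DMSO 1 the list was balanced at 7 and 7 (median 0.18), and the fit of 4 libraries called 3 and 1. With total counts in place of TMM 6 were higher and 5 lower, with a median of 0.006. Gcnt2, a glycosyltransferase, stood at 1.40 and 4.75 against 30.2 and 38.5 CPM (3.50 ± 0.51, 4.63 without DMSO 2). Erg, an ETS transcription factor of stem cells, stood at 7.75 and 5.27 against 35.1 and 31.2 CPM (2.34 ± 0.23, 2.12 without DMSO 2), and Tcf7l2, a factor of the Wnt pathway, at 1.67 and 2.11 against 8.25 and 8.76 CPM (2.17 ± 0.47, 2.36 without DMSO 2). In each of these the EPZ libraries lay above both DMSO libraries. Gata2, a factor of stem cells and mast cells, went the other way at 4.01 and 1.68 against 0.146 and 0.188 CPM (−4.05 ± 0.62, −4.52 without DMSO 2). Cd34, the progenitor surface antigen, was low at 0.935 and 1.87 against 0.0970 and 0.565 CPM and Lyl1, a helix-loop-helix factor, stood at 232 and 199 against 243 and 244 CPM, both apart and not called. Kit, the stem cell factor receptor, stood at 45.9 and 180.1 against 139 and 111 CPM, between the DMSO libraries, and passed the test without DMSO 2 (1.47, adjusted p = 0.00345 in edgeR's quasi-likelihood test after Benjamini-Hochberg).

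Most genes of secondary granules rose. Of 40 tested members 35 rose and 0 fell, 36 lay apart above DMSO, and the median was 4.75 beside −0.06 over all genes. Of all genes 18.7% rose and 31.6% lay apart above DMSO. Without DMSO 2 36 rose with a median of 4.16, in the fit of the 4 libraries 28, and against MM-401 35 with a median of 3.31. Summed levels were 6085 and 2265 against 68115 and 94858 CPM, with S100a9, a calcium-binding protein of neutrophils, the most abundant gene with EPZ5676 at 1345 and 174 against 17949 and 24796 CPM. In RNA from a mixed culture, fewer cells of a type and less RNA per cell cannot be told apart, and the same holds for more.

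Ltf, the iron-binding lactoferrin of these granules, stood at 25.2 and 8.92 against 3194 and 4829 CPM and rose (7.87 ± 0.62, 7.33 without DMSO 2, adjusted p = 0.000373 in edgeR's quasi-likelihood test after Benjamini-Hochberg). Camp, the antimicrobial cathelicidin, stood at 52.7 and 39.3 against 2466 and 3496 CPM (6.02 ± 0.28, 5.84 without DMSO 2), and Ngp, neutrophilic granule protein, at 553 and 133 against 10724 and 12547 CPM (5.08 ± 0.70, 4.42 without DMSO 2). Both EPZ libraries exceeded both DMSO libraries in all 3, and DMSO 1 was the higher DMSO library. Lcn2, the siderophore-binding lipocalin, had the same order at 75.6 and 13.5 against 1374 and 2275 CPM (5.35 ± 0.86, 4.61 without DMSO 2). Retnlg, a resistin-like protein of neutrophils, stood at 1.40 and 0.192 against 125 and 177 CPM (7.49 ± 0.56, 6.77 without DMSO 2), and the chitinase-like genes Chil3 and Chil1 at 29.1 and 15.3 against 1839 and 4116 CPM and 5.22 and 1.15 against 349 and 802 CPM (7.06 ± 0.72, 6.69 without DMSO 2, and 7.46 ± 0.75, 6.80 without DMSO 2). Chil3 has close relatives in the genome, and its reads may be split among them. EPZ 2 was above EPZ 1 in each of these. Cebpe, the transcription factor that drives secondary granule genes, stood at 107 and 108 against 315 and 461 CPM (1.85 ± 0.25, 1.88 without DMSO 2). The most abundant members without a call were Hp, haptoglobin, at 142 and 500.3 against 489 and 737 CPM and Tcn2, a vitamin B12 carrier, at 262 and 159 against 261 and 278 CPM, with overlapping groups. Hp passed the test without DMSO 2, with a log2 change of 2.13. Its level in DMSO 2 lay above that in EPZ 1.

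Among primary granule genes 2 of 18 were higher and 9 lower, with a median of −1.24 (3 and 7 without DMSO 2, median −0.65, and 2 and 9 against MM-401, median −1.05). The fits without EPZ 1 and without EPZ 2 called 6 and 5 of them lower, and 6 were lower with 4 libraries. Their summed level was 14266 and 20312 against 8818 and 11552 CPM. Elane, neutrophil elastase, stood at 4195 and 4009 against 1427 and 1222 CPM and fell (−1.63 ± 0.34, −1.64 without DMSO 2), a call lost without EPZ 2. Srgn, the serglycin core of the granule matrix, stood at 1318 and 2190.4 against 339 and 345 CPM (−2.36 ± 0.29, −1.92 without DMSO 2). In both genes the 2 groups were far from overlapping. Mpo, myeloperoxidase, stood at 386 and 4817 against 167 and 367 CPM. DMSO 2 was the high library, and the change of −3.28 ± 1.04 became −0.51 without it (adjusted p = 0.0397 and 0.520 in edgeR's quasi-likelihood test after Benjamini-Hochberg), while the call was also lost without EPZ 1 or EPZ 2.

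Lyz2, lysozyme of myeloid cells, was among the members that rose, at 282 and 261 against 3562 and 5389 CPM (4.04 ± 0.28, 4.01 without DMSO 2), and so did its near-identical copy Lyz1 at 0.156 and 0.431 against 2.47 and 4.85 CPM (3.65 ± 0.57, 4.53 without DMSO 2). How reads were split between these copies is uncertain. Ms4a3, a membrane protein of granulocyte-monocyte progenitors, at 749.8 and 513 against 332 and 524 CPM and Serpinb1a, an elastase inhibitor, at 429.7 and 334 against 522 and 518 CPM were not called. The EPZ libraries were on either side of DMSO 2 in Ms4a3 and above DMSO in Serpinb1a.

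**Figure D3:**
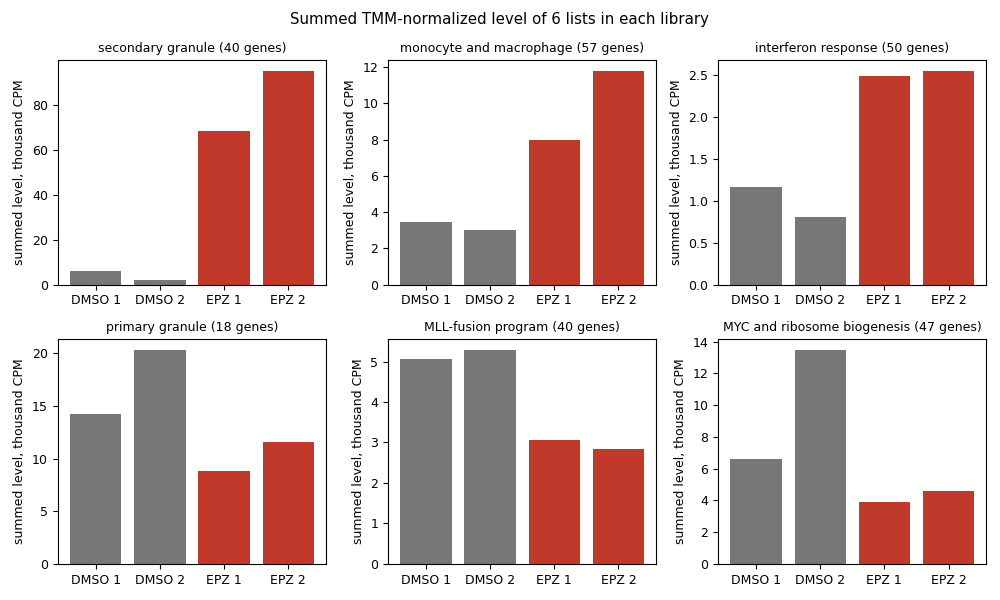
Summed level of 6 gene lists in each of the 4 libraries, in units of 1000 CPM, 1 bar a library. Secondary granule genes sum to 6085 and 2265 against 68115 and 94858 CPM, and genes of MYC and ribosome biogenesis to 6614 and 13468 against 3882 and 4568 CPM.

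Genes of the mature neutrophil rose in 29 of 44 tested members and fell in 1, median 1.32 (31 and 0 without DMSO 2, median 1.22). Against MM-401 29 were higher and 1 lower, median 1.06, and the fit of 4 libraries called 16 and 0. The sum went from the DMSO to the EPZ libraries as 8796 and 6839 against 17299 and 20519 CPM. Cxcr2, a chemokine receptor for neutrophil migration, stood at 4.71 and 1.77 against 139.6 and 132 CPM (5.36 ± 0.44, 4.87 without DMSO 2). The formyl peptide receptors Fpr1 and Fpr2 stood at 0.234 and 0 against 7.81 and 13.9 CPM and 0.896 and 0.0959 against 28.1 and 65.5 CPM (6.37 ± 0.83, 5.53 without DMSO 2, and 6.47 ± 0.76, 5.72 without DMSO 2), and the Fpr genes resemble one another in sequence. All 3 receptors were low in DMSO and higher in both EPZ libraries, and the change of Fpr1 was 10.98 without DMSO 1. Itgam, the integrin CD11b, stood at 481 and 279 against 1862 and 2533 CPM (2.53 ± 0.30, 2.21 without DMSO 2). Without a call stayed Ly6c2, a surface antigen with a near-identical copy, at 1640.0 and 1093 against 1117 and 1354 CPM, and Gda, guanine deaminase, at 623 and 562 against 758 and 950.4 CPM.

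NADPH oxidase and phagocytosis genes rose in 21 of 27 tested members and fell in 1, with a median of 1.44 (median 1.48 without DMSO 2, and 13 and 0 with 4 libraries). Cybb, the catalytic subunit of the oxidase and a member of 3 lists, stood at 48.8 and 30.7 against 1411 and 1959 CPM (5.40 ± 0.33, 5.13 without DMSO 2). Anxa1, annexin A1, stood at 21.2 and 17.5 against 648 and 1245 CPM (5.61 ± 0.42, 5.50 without DMSO 2). Fgr, a tyrosine kinase, stood at 7.87 and 0.959 against 134 and 135 CPM (4.90 ± 0.71, 4.11 without DMSO 2). Both EPZ libraries lay many times above DMSO in these 3 genes. Vav1 and Rac1, which act in the Rac pathway, stood at 174 and 303 against 311 and 369.7 CPM and 285 and 242 against 299 and 311 CPM and were not called, although both lay apart above DMSO.

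Monocyte and macrophage genes rose in 38 of 57 tested and fell in 1, with a median of 2.15 (40 and 1 without DMSO 2, median 2.61). Against MM-401 the counts were 34 and 2, median 1.89. The summed level was 3443 and 2996 against 7949 and 11771 CPM, with Ctsd, the lysosomal protease cathepsin D, the most abundant gene at 998 and 955 against 1536 and 2791 CPM (1.15 ± 0.32, 1.14 without DMSO 2). The call of Ctsd was lost without DMSO 2 or EPZ 2, and its change was 0.66 without EPZ 2. Mrc1, the mannose receptor, stood at 1.67 and 1.05 against 75.002 and 142 CPM (6.29 ± 0.69, 6.04 without DMSO 2), and Msr1, a scavenger receptor, at 0.857 and 1.49 against 59.9 and 90.3 CPM (6.01 ± 0.66, 6.47 without DMSO 2). Ccl2, a monocyte chemokine, stood at 0.156 and 0.767 against 20.7 and 49.3 CPM (6.29 ± 0.91, 7.78 without DMSO 2). All 3 were low in both DMSO libraries, and higher in EPZ 2 than in EPZ 1. Cd36, a scavenger receptor chosen after its values were seen, had 0 reads with DMSO and 184 with EPZ5676, at least 68.2-fold higher. Its level was 1.31 and 7.39 CPM in EPZ 1 and EPZ 2, and its call was lost without either DMSO library or EPZ 2. Csf1r, the receptor of the macrophage growth factor, stood at 8.72 and 18.98 against 47.3 and 51.4 CPM (1.84 ± 0.50, 2.52 without DMSO 2), with its call lost without DMSO 1, EPZ 1 or EPZ 2. F13a1, a coagulation factor subunit of monocytes, at 453 and 218 against 331 and 175 CPM and Ccl9, a chemokine, at 198 and 174 against 121 and 152 CPM were the most abundant members without a call, and F13a1 overlapped.

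Lysosomal genes rose in 23 of 52 tested and fell in 2, median 0.58 (19 and 4 without DMSO 2, median 0.54). Much of this leaned on EPZ 2: without it 10 rose and 1 fell, with a median of 0.34, and the fit of 4 libraries called 9 and 1. Gpnmb, a glycoprotein of lysosomes and a macrophage marker, stood at 41.6 and 9.73 against 582 and 1194 CPM (5.11 ± 0.82, 4.44 without DMSO 2), and Atp6v0d2, a subunit of the proton pump, at 0.0779 and 0.0959 against 12.5 and 37.8 CPM (8.10 ± 1.22, 8.26 without DMSO 2). The proteases Ctss and Ctsh stood at 17.95 and 22.6 against 139.7 and 219.7 CPM and 9.23 and 4.55 against 47.7 and 76.7 CPM (3.15 ± 0.54, 3.34 without DMSO 2, and 3.17 ± 0.51, 2.77 without DMSO 2). Groups were apart in all 4 genes. Lamp1, an abundant membrane protein of lysosomes, stood at 891 and 778 against 797 and 1078 CPM and Grn, progranulin, at 575 and 277 against 622 and 709 CPM, neither called, and Lamp1 overlapped.

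In antigen presentation 10 of 28 tested genes rose and 3 fell, with a median of 0.41 that became 0.09 without DMSO 2 (9 and 5) and 1.12 without DMSO 1 (12 and 2). The counts were 7 and 1 without EPZ 1, 7 and 0 without EPZ 2, and 4 and 0 with 4 libraries. The costimulatory ligands Cd80 and Cd86 stood at 5.69 and 2.35 against 20.9 and 28.6 CPM and 0.818 and 0.336 against 5.63 and 10.03 CPM (2.61 ± 0.38, 2.14 without DMSO 2, and 3.73 ± 0.61, 3.27 without DMSO 2). Nlrc5, an activator of MHC class I genes, stood at 1.60 and 1.15 against 5.58 and 6.64 CPM (2.14 ± 0.53, 1.96 without DMSO 2), a call lost without EPZ 2. H2-K1, an MHC class I gene of a family with shared sequence, stood at 529 and 217 against 316 and 245 CPM, with overlapping groups. Tap2, a peptide transporter, lay apart below DMSO at 275 and 194 against 172 and 136 CPM and passed the test without DMSO 2 (adjusted p = 0.0186 in edgeR's quasi-likelihood test after Benjamini-Hochberg).

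Interferon response genes rose in 23 of 45 tested and fell in 1. The median was 1.28, or 0.86 without DMSO 2 (21 and 1), and 1.12 against MM-401 (21 and 1). Calls ranged from 10 and 0 in the fit of 4 libraries to 33 and 2 without DMSO 1 (median 1.78). Their summed level was 1163 and 809 against 2482 and 2545 CPM. Ifitm6 and Ifitm3, of a family of antiviral membrane proteins with shared sequence, stood at 3.35 and 1.10 against 252 and 452 CPM and 33.7 and 19.7 against 234 and 314 CPM (7.27 ± 0.64, 6.74 without DMSO 2, and 3.36 ± 0.35, 3.04 without DMSO 2). Oas2, an enzyme that senses viral RNA, stood at 8.41 and 1.25 against 68.5 and 61.2 CPM (3.73 ± 0.67, 2.97 without DMSO 2), and Ifi27l2a, an interferon-induced mitochondrial protein, at 1.13 and 1.01 against 13.002 and 21.1 CPM (3.99 ± 0.33, 3.93 without DMSO 2). The EPZ libraries were above DMSO in each, and the change of Oas2 was 5.70 without DMSO 1. Ifit1, an antiviral RNA-binding protein, was chosen after its values were seen. Its 69 reads with EPZ5676 against 3 with DMSO gave a ratio of 25.6 (exact binomial interval 8.39 to 127). The log2 change of Ifit1 was 4.55, and 5.25 without DMSO 2. Ifitm1 at 93.3 and 50.5 against 165 and 124 CPM and Eif2ak2, the kinase PKR, at 94.4 and 65.8 against 92.8 and 80.4 CPM were not called.

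Promoters of the interferon, granule, neutrophil, monocyte, MLL fusion target and ribosome lists were searched for 10 spellings of sites of known factors, on either strand (N is any base). The windows run from 250 bases before to 50 after the start of a gene, in the RefSeq annotation of GRCm38.p6 (the authors aligned to mm9), and 32851 of them cover 27025 genes. The core of the interferon-stimulated response element, GAAA, any 2 bases and GAAA again was present in 3.44% of all windows and in 23 of 42 windows of 37 interferon genes. It was in 5 of 33 neutrophil, 3 of 48 monocyte, 3 of 50 MLL fusion target, 1 of 33 secondary granule and 1 of 51 ribosome windows. The site of C/EBP factors TTGCNNAA was in 10.8% of all windows and in 11 of 33 of 32 secondary granule genes, as well as in 7 of 33 neutrophil, 5 of 48 monocyte, 5 of 50 MLL fusion target, 4 of 51 ribosome and 2 of 42 interferon windows. TTGCNCAA, a spelling within it, was in 2.94% of all windows, 7 of 33 secondary granule, 2 of 33 neutrophil and 2 of 42 interferon windows, and 1 window of each other list. TTNNGNAA was in 40.7% of all windows, 21 of 33 secondary granule, 18 of 33 neutrophil, 26 of 48 monocyte, 23 of 42 interferon, 14 of 50 MLL fusion target and 12 of 51 ribosome windows. TTNCGCAA (0.798% of all) was in 2 of 33 neutrophil, 1 of 33 secondary granule and 1 of 42 interferon windows, and TTGCGCAA (0.183% of all) in 1 window of each of these 3 lists. The E-box CACGTG, bound by MYC, was in 7.15% of all windows, in 10 of 51 of 41 ribosome and MYC target genes, 8 of 50 MLL fusion target, 5 of 33 secondary granule, 2 of 33 neutrophil, 3 of 48 monocyte and 0 of 42 interferon windows. The ETS sites GGAAGTG, GAGGAAGT and AGAGGAAG were in 11.0%, 3.20% and 4.55% of all windows. GGAAGTG was in 15 of 51 ribosome, 8 of 33 secondary granule, 7 of 48 monocyte, 5 of 42 interferon, 3 of 33 neutrophil and 3 of 50 MLL fusion target windows. GAGGAAGT was in 5, 3, 4, 1, 1 and 4 and AGAGGAAG in 4, 6, 6, 1, 3 and 2 windows of the secondary granule, neutrophil, monocyte, interferon, MLL fusion target and ribosome lists. The spellings and lists were chosen with the expression values known, no test was made, and a match is a description of letters and not of binding.

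The promoters of 4 members show such matches in place. They are the first 2 genes of each list, from the widest gap on, that rose, lay apart and held the site: Ifitm3 (chr7:141010695-141010994, minus strand) and Ifit1 (chr19:34640639-34640938, plus strand) for the interferon element, Ltf (chr9:111019042-111019341, plus strand) and Retnlg (chr16:48872358-48872657, plus strand) for TTGCNNAA. They are read 5′ to 3′ with the matches in capitals. Ifitm3 and Ifit1 hold 2 matches each, Ltf and Retnlg 1 each.
Ifitm3: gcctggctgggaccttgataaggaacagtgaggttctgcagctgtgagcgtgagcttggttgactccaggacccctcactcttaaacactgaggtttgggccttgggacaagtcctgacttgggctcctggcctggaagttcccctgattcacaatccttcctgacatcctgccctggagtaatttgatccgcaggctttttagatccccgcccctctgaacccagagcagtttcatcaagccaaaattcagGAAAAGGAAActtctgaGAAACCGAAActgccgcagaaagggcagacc
Ifit1: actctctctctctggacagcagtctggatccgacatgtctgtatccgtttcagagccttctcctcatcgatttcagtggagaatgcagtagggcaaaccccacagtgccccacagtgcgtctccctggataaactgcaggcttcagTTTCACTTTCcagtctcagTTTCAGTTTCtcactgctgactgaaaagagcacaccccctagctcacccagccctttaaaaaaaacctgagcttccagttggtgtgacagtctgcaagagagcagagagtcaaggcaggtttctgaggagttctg
Ltf: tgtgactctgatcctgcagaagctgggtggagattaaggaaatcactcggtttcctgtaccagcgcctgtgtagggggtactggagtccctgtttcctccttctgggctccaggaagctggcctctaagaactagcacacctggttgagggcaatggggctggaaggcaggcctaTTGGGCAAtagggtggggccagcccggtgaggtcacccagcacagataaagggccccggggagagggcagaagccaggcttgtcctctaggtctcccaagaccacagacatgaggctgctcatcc
Retnlg: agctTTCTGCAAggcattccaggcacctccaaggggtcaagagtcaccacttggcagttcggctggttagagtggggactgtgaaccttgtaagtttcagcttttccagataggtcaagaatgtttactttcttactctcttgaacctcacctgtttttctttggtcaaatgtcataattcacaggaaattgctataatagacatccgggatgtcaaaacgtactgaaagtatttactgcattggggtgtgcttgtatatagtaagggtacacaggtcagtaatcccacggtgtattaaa

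Most genes of ribosome biogenesis and other MYC targets fell. Of 47 tested 0 rose and 41 fell, 45 lay apart below DMSO, and the median was −1.21 beside −0.06 over all genes. Of all genes 19.4% fell and 33.0% lay apart below DMSO. The calls leaned on the library left out: 28 fell without DMSO 2 (median −0.70), 47 without DMSO 1, 18 without EPZ 1 and 26 without EPZ 2, and 7 in the fit of the 4 libraries. Against MM-401 44 were lower with a median of −1.30. Summed levels were 6614 and 13468 against 3882 and 4568 CPM, and DMSO 2 was the highest library. Ncl, the nucleolar protein nucleolin and the most abundant gene, stood at 1119 and 3224 against 715 and 850.3 CPM, and its change of −1.47 ± 0.42 became −0.49 and lost its call without DMSO 2, as the call was without EPZ 1 or EPZ 2.

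Cad, the enzyme that starts pyrimidine synthesis, stood at 154 and 369.7 against 62.6 and 63.1 CPM, and its change of −2.06 ± 0.34 became −1.27 without DMSO 2. Wdr12, a ribosome assembly factor, stood at 66.04 and 187 against 20.96 and 30.2 CPM (−2.30 ± 0.46, −1.35 without DMSO 2). In both genes DMSO 2 was the high library, DMSO 1 was intermediate and the EPZ libraries were lowest. The polyamine enzymes Odc1 and Srm stood at 106 and 121 against 43.5 and 32.8 CPM and 125 and 223 against 59.6 and 57.1 CPM, with changes of −1.57 ± 0.15 (−1.45 without DMSO 2) and −1.57 ± 0.25 (−1.07 without DMSO 2) (adjusted p = 0.000612 and 0.00282 in edgeR's quasi-likelihood test after Benjamini-Hochberg). Dkc1, the pseudouridine synthase dyskerin, at 333 and 499 against 290.5 and 288 CPM and Ubtf, a factor of rRNA transcription, at 189 and 316 against 176 and 217 CPM were the most abundant members without a call, and Ubtf overlapped.

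Amino acid synthesis and ATF4 target genes had 0 of 30 tested higher and 14 lower, and 23 lay apart below DMSO. Over all genes 19.4% were called lower and 33.0% lay apart below DMSO. The median of −0.63 became −0.85 without DMSO 2, with 16 lower, while 7 were lower without EPZ 2 (median −0.59) and 6 with 4 libraries. Slc1a4, a transporter of neutral amino acids, stood at 28.5 and 28.4 against 7.86 and 4.0014 CPM (−2.26 ± 0.44, −2.24 without DMSO 2). The serine hydroxymethyltransferases Shmt2, of mitochondria, and Shmt1, of the cytosol, stood at 445 and 474 against 176 and 133 CPM and 83.96 and 134 against 42.98 and 43.3 CPM (−1.58 ± 0.17, −1.50 without DMSO 2, and −1.34 ± 0.21, −0.94 without DMSO 2). Bcat1, a transaminase of branched-chain amino acids, stood at 9.81 and 14.4 against 4.66 and 2.35 CPM (−1.79 ± 0.42, −1.46 without DMSO 2), a call lost without EPZ 2. All 4 were lower in each EPZ library. Atf4 itself at 624 and 763 against 512 and 525 CPM and Asns, asparagine synthetase, at 424 and 226 against 256 and 189.6 CPM were not called, and Asns passed the test without DMSO 2 (adjusted p = 0.0410 in edgeR's quasi-likelihood test after Benjamini-Hochberg).

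**Figure D4:**
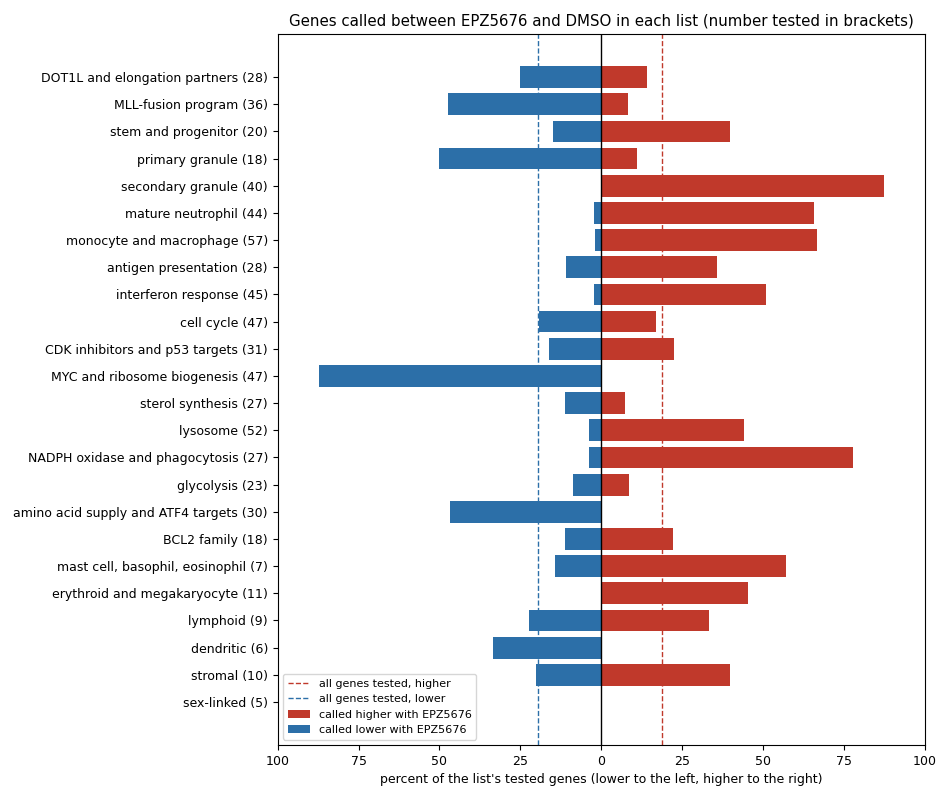
Percent of tested members called higher (right) and lower (left) with EPZ5676 in each gene list, with dashed lines at 18.7% and 19.4% of all genes. Secondary granule genes reach 35 of 40 called higher, and ribosome and MYC target genes 41 of 47 called lower.

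Cell cycle genes as a list stayed near the background, 8 of 47 higher and 9 lower with a median of 0.05 (7 and 8 without DMSO 2, median 0.07). As over all genes, more were called without DMSO 1, 12 and 15, and fewer without EPZ 1 (4 and 7), without EPZ 2 (4 and 6) and with 4 libraries (2 and 1). The named members went different ways. Mcm6, of the helicase that opens replication origins, stood at 541 and 933 against 302 and 294 CPM (−1.31 ± 0.23, −0.84 without DMSO 2) and Cdk4, a G1 kinase, at 315 and 444 against 145 and 174 CPM (−1.25 ± 0.18, −0.96 without DMSO 2), both lower in each EPZ library. Ccnd1, cyclin D1, stood at 1.87 and 1.77 against 16.8 and 25.3 CPM (3.53 ± 0.36, 3.51 without DMSO 2) and E2f2, a transcription factor of S phase entry, at 80.3 and 21.3 against 223 and 273 CPM (2.29 ± 0.50, 1.65 without DMSO 2), both higher. The call of E2f2 was lost without EPZ 2, and its change was 3.54 without DMSO 1. Top2a, a topoisomerase of dividing cells, at 909 and 937 against 1055 and 896 CPM overlapped, and Ccnd3, cyclin D3, at 385 and 129.7 against 583 and 519 CPM lay apart without a call. Mki67, a proliferation marker chosen after its values were seen, stood at 1031 and 870.1 against 1540.2 and 1436 CPM (0.65 ± 0.16, 0.55 without DMSO 2), a call lost without EPZ 1.

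CDK inhibitors and p53 targets had 7 of 31 higher and 5 lower, median 0.39 (6 and 4 without DMSO 2, median 0.19). With both DMSO libraries these counts were near the 18.7% and 19.4% of all genes. Without DMSO 1, when more of all genes were called, 15 rose and 5 fell, median 0.65, without EPZ 2 6 and 2, and with 4 libraries 3 and 1. Btg2, an antiproliferative p53 target, stood at 27.02 and 19.9 against 120.0 and 127 CPM (2.39 ± 0.29, 2.21 without DMSO 2). Trp53inp1, another p53 target, stood at 65.2 and 15.1 against 284 and 292 CPM (2.84 ± 0.57, 2.17 without DMSO 2), and Plk2, a stress-induced kinase, at 1.64 and 0.767 against 11.5 and 9.89 CPM (3.13 ± 0.42, 2.73 without DMSO 2). Each was higher in both EPZ libraries, and the change of Trp53inp1 was 4.26 without DMSO 1. Cdkn1a, the inhibitor p21, stood at 253 and 58.2 against 183 and 99.3 CPM. The EPZ libraries lay between the DMSO libraries, and its uncalled change of −0.14 was −0.81 without DMSO 2. Without DMSO 1 it changed sign to 1.28 and passed the test (adjusted p = 0.0320 in edgeR's quasi-likelihood test after Benjamini-Hochberg). Cdkn1b, the inhibitor p27, stood at 67.3 and 20.3 against 107 and 79.8 CPM, apart above DMSO and called only without DMSO 1 among the libraries left out (2.21). Ccng1, cyclin G1, stood at 196 and 172 against 199 and 284 CPM and was not called.

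In the BCL2 family 4 of 18 tested rose and 2 fell, median 0.41 (6 and 3 without DMSO 2, median 0.49, 6 and 2 without DMSO 1, median 0.24, 4 and 1 without EPZ 2, and 2 and 0 with 4 libraries). Over all genes 18.7% rose and 19.4% fell. The proapoptotic genes Bcl2l11 and Bmf stood at 26.6 and 27.1 against 82.4 and 70.99 CPM and 14.1 and 6.42 against 34.5 and 23.02 CPM (1.51 ± 0.14, 1.55 without DMSO 2, and 1.48 ± 0.40, 1.05 without DMSO 2), and Bmf lost its call without DMSO 2 or EPZ 1. The antiapoptotic genes Mcl1 and Bcl2l1 stood at 304 and 266 against 596 and 623 CPM and 48.8 and 35.2 against 70.9 and 71.7 CPM (1.10 ± 0.14, 1.03 without DMSO 2, and 0.76 ± 0.15, 0.57 without DMSO 2). These 4 genes, of both kinds, were named because they were called and apart. Of the 18 members 6 lay apart above DMSO and 3 below. Bnip3l, a mitophagy receptor, at 152 and 113 against 209 and 189 CPM and the proapoptotic Bak1 at 181 and 170.2 against 168 and 194 CPM were not called.

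Sterol synthesis genes had 2 of 27 higher and 3 lower, median −0.15 (4 and 2 without DMSO 2, median 0.05). With both DMSO libraries they lay below the 18.7% and 19.4% of all genes. The counts went from 4 and 9 without DMSO 1 to 2 and 1 without EPZ 1 and 0 and 0 without EPZ 2, and were 0 and 0 with 4 libraries. Dhcr7, an enzyme of the last steps, stood at 101 and 137 against 61.1 and 54.7 CPM (−1.04 ± 0.23, −0.78 without DMSO 2), whereas Mvd and Fdps, enzymes of the mevalonate pathway, stood at 99.5 and 94.8 against 159 and 165 CPM and 109 and 120.4 against 182 and 201 CPM (0.74 ± 0.18, 0.73 without DMSO 2, and 0.74 ± 0.17, 0.83 without DMSO 2). Acly, which makes cytosolic acetyl-CoA, at 865 and 727 against 788 and 614 CPM and Srebf2, the transcription factor of the pathway, at 453 and 331 against 559 and 425 CPM overlapped. Dhcr7, Mvd and Fdps lost their call without EPZ 2.

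Glycolysis genes had 2 of 23 higher and 2 lower, median −0.29 (2 and 2 without DMSO 2, median −0.51). Over all genes the shares were 18.7% and 19.4%. The median ranged from −0.72 without EPZ 1 to 0.09 without EPZ 2, and 4 and 1 were called without DMSO 1 (median −0.08) and 1 and 1 with 4 libraries. With libraries of the same replicate number treated as a block 2 were higher and 9 lower, although the labels name nothing that such libraries share. Slc2a3, a glucose transporter, stood at 150.1 and 36.1 against 842 and 628 CPM (2.98 ± 0.69, 2.32 without DMSO 2) and Pfkfb4, which makes an activator of glycolysis, at 31.7 and 28.8 against 131 and 209 CPM (2.49 ± 0.24, 2.45 without DMSO 2). Slc16a1, a lactate transporter, stood at 114 and 148 against 53.1 and 46.6 CPM (−1.39 ± 0.17, −1.17 without DMSO 2) and Pfkm, a phosphofructokinase, at 51.6 and 40.2 against 25.8 and 13.4 CPM (−1.23 ± 0.38, −1.37 without DMSO 2). The first pair was higher and the second pair lower in both EPZ libraries, and Pfkm lost its call without DMSO 1 or EPZ 2. Pkm and Aldoa, abundant enzymes of the pathway, stood at 2584 and 1924 against 2473 and 1668 CPM and 2681 and 1493 against 2366 and 1261 CPM, with overlapping groups. In both genes library 2 lay below library 1 in each group, and EPZ 1 and EPZ 2 lay below the DMSO library of the same number.

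**Figure D5:**
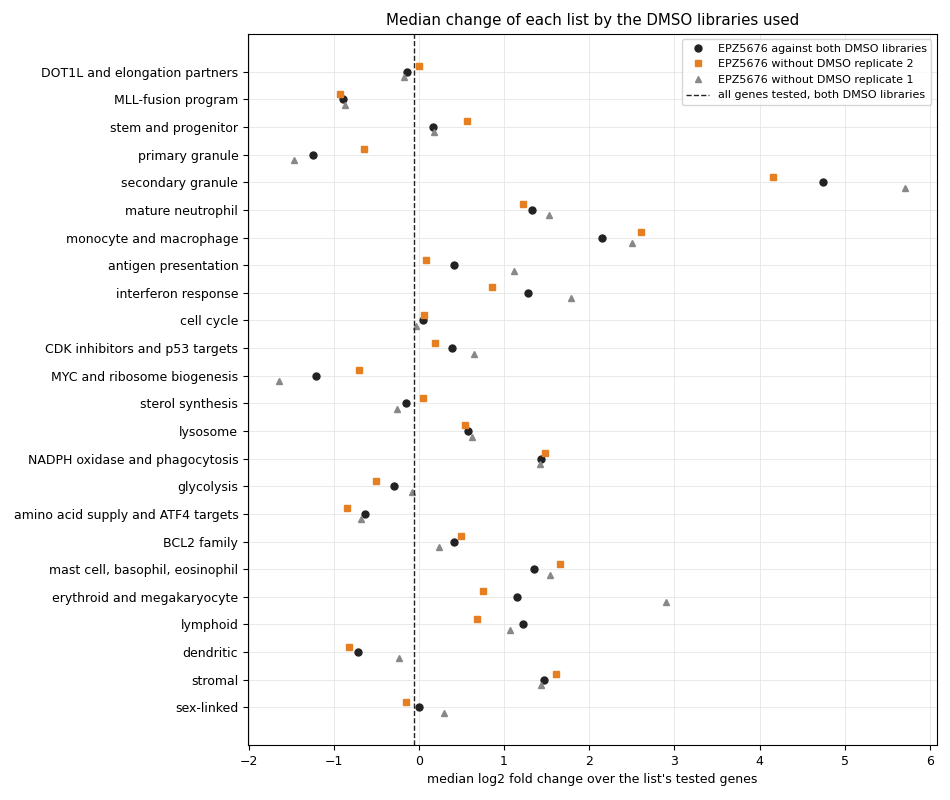
Median log2 fold change of each gene list (EPZ5676 over DMSO) with both DMSO libraries, without DMSO 2 and without DMSO 1, and over all genes. For secondary granule genes it is 4.75, and 4.16 without DMSO 2, and for ribosome and MYC target genes −1.21 and −0.70.

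Among all genes, those with the widest gaps between the groups included several outside the lists. Mmp12, macrophage elastase, stood at 0.428 and 0.431 against 83.9 and 88.97 CPM (7.63 ± 0.91, 7.66 without DMSO 2) and Asprv1, an aspartic protease, at 2.18 and 0.384 against 165 and 226 CPM (7.19 ± 0.61, 6.51 without DMSO 2). Plbd1, a phospholipase B-like protein, stood at 0.312 and 0.0479 against 37.6 and 89.8 CPM (8.34 ± 0.97, 7.67 without DMSO 2). All 3 were close to 0 in both DMSO libraries and far above them in both EPZ libraries. The transcript 2010002M12Rik, of unknown role, had 3 reads with DMSO and 3368 with EPZ5676, a ratio of 1248 (exact binomial interval 427 to 6056). Its log2 change of 10.15 became 9.62 without DMSO 1 and 10.83 without DMSO 2. It was 10.91 without EPZ 1 and 8.49 without EPZ 2.

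Downward, Hpgd, which inactivates prostaglandins, stood at 647 and 601 against 19.1 and 53.3 CPM (−4.11 ± 0.52, −4.14 without DMSO 2) and Fut8, a fucosyltransferase, at 411 and 566 against 64.6 and 66.7 CPM (−2.90 ± 0.17, −2.62 without DMSO 2). The DMSO libraries were close to each other in both genes. Cgnl1, a protein of cell junctions, stood at 177 and 462 against 21.1 and 21.2 CPM (−3.92 ± 0.41, −3.04 without DMSO 2) and Muc13, a membrane mucin, at 235 and 117 against 14.7 and 10.8 CPM (−3.79 ± 0.38, −4.18 without DMSO 2). Slc22a3, a transporter of organic cations, stood at 43.1 and 15.2 against 1.26 and 0.612 CPM (−4.96 ± 0.60, −5.50 without DMSO 2), Glra3, a glycine receptor subunit, at 11.5 and 20.5 against 0.0485 and 0.282 CPM (−6.54 ± 0.66, −6.04 without DMSO 2) and Gm1110, a predicted gene, at 9.74 and 33.8 against 0.582 and 0.8003 CPM (−4.96 ± 0.71, −3.78 without DMSO 2). In these 5 the DMSO libraries differed from each other, in both directions, and the EPZ libraries lay below both. Gcnt4, a glycosyltransferase, had 2 reads with EPZ5676 and 393 with DMSO, a ratio of 177 (exact binomial interval 48.6 to 1464). Its log2 change of −7.40 became −8.05 without DMSO 1 and −6.15 without DMSO 2. It was −10.74 without EPZ 1 and −6.45 without EPZ 2.

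Direct tests set EPZ5676 beside the other inhibitors, each at its own IC50. Values are now those of the other inhibitor before "against" and of EPZ5676 after it. Against MM-401 the genes of smallest adjusted p that were higher were Tmcc1, Gpr55, Abcc3, Plau and Peli2. Tmcc1, an endoplasmic reticulum protein, stood at 17.8 and 15.7 against 112 and 102 CPM (2.67 ± 0.12, beside 2.54 ± 0.12 over DMSO), and Plau, the plasminogen activator urokinase, at 4.73 and 4.62 against 40.2 and 36.1 CPM (3.03 ± 0.17, beside 3.24 ± 0.17 over DMSO). Gpr55, a G protein-coupled receptor, stood at 1.65 and 1.76 against 17.95 and 17.3 CPM (3.36 ± 0.21). Abcc3, a transporter of organic anions, stood at 2.37 and 2.48 against 34.4 and 27.3 CPM (3.67 ± 0.20), and Peli2, a ubiquitin ligase, at 11.6 and 14.2 against 81.2 and 72.9 CPM (2.58 ± 0.17). In all 5 both EPZ libraries were above both MM-401 libraries.

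Lower than with MM-401 were Pdcd4, a translation inhibitor, at 317 and 336 against 84.2 and 77.3 CPM (−2.02 ± 0.12), and Pus7, a pseudouridine synthase, at 68.4 and 68.5 against 16.3 and 16.3 CPM (−2.07 ± 0.12). Fut8 stood at 407 and 397 against 64.6 and 66.7 CPM (−2.61 ± 0.17) and Nrg2, a neuregulin, at 40.7 and 45.7 against 4.95 and 6.03 CPM (−2.98 ± 0.21). Sgip1, an endocytic adaptor, stood at 151 and 150.2 against 20.5 and 23.6 CPM (−2.77 ± 0.19). The DMSO libraries of these genes stood at 317 and 287 (Pdcd4), 61.4 and 67.1 (Pus7), 23.9 and 33.9 (Nrg2) and 113 and 121 CPM (Sgip1), so that each of them was also lower than with DMSO. Both comparisons share the EPZ libraries.

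Against iBET 19.1% of genes were called higher and 18.5% lower with EPZ5676. With total counts in place of TMM 38.5% of these calls were higher rather than 50.9%, and against MM-401 35.5% rather than 50.3%. Gpr55 stood at 0.177 and 0.115 against 17.95 and 17.3 CPM (6.88 ± 0.28), Peli2 at 2.25 and 2.10 against 81.2 and 72.9 CPM (5.14 ± 0.19) and Cd84, a receptor of the SLAM family, at 4.38 and 3.75 against 92.9 and 96.5 CPM (4.54 ± 0.16). Camp at 2.96 and 3.10 against 2466 and 3496 CPM (9.94 ± 0.34) and 9830107B12Rik, a transcript of unknown role, at 0.0442 and 0.0765 against 40.1 and 38.98 CPM (9.21 ± 0.37) were the other 2 genes of smallest adjusted p, and all 5 were higher in both EPZ libraries.

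Lower than with iBET were Itsn1, an endocytic scaffold, at 252 and 185 against 9.31 and 12.5 CPM (−4.33 ± 0.25), and Fndc3b, a fibronectin type III domain protein, at 302 and 298 against 42.8 and 38.9 CPM (−2.88 ± 0.17). Slc29a1, a nucleoside transporter, stood at 154 and 170.2 against 44.3 and 38.1 CPM (−1.97 ± 0.12). Fut8 at 535 and 523 against 64.6 and 66.7 CPM (−3.01 ± 0.17) and Nrg2 at 70.4 and 71.98 against 4.95 and 6.03 CPM (−3.70 ± 0.21) were thus lower than with either MM-401 or iBET. Secondary granule genes were higher than with iBET in 37 of 40 members (median 6.31), and ribosome and MYC target genes lower in 25 of 47 (median −0.88). Whether other lists differed from the comparison with DMSO was not tested, and both comparisons share the EPZ libraries. Primary granule genes were 8 higher and 5 lower than with iBET (median 0.93), cell cycle genes 17 and 6 (median 0.30), sterol genes 10 and 0 (median 0.29), lysosomal genes 10 and 12 (median −0.07) and interferon genes 18 and 6 (median 0.66).

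Against MI the test called 0.0154% of genes, 2 of 12971, with 937 at an unadjusted p below 0.05. Abcc3 stood at 159.9 and 144 against 34.4 and 27.3 CPM (−2.30 ± 0.18) and was lower with EPZ5676. Rhobtb3, a BTB domain protein, stood at 7.07 and 5.26 against 23.8 and 23.3 CPM (1.94 ± 0.19) and was higher. Over DMSO the changes were 4.18 ± 0.21 and −1.08 ± 0.18, from 1.99 and 1.39 and from 49.6 and 50.5 CPM. When any EPZ or MI library was left out edgeR's test called 0 genes, with 569 to 972 at an unadjusted p below 0.05, whereas the Wald test of DESeq2 on all libraries called 155. A p above the threshold does not show that the inhibitors act alike.

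The part of other cell types in the results was not tested. Many genes of their lists had few reads. A gene near 0 in 1 condition could pass the filter through a condition where it was higher. Counts of called members therefore include genes so admitted and give no support for a direction. Over all genes 18.7% were called higher and 19.4% lower. Of the erythroid and megakaryocyte list 11 of 25 genes were tested, 5 rose and 0 fell, and 9 were at 0 in the 4 libraries, among them Hba-a1 and Hbb-b1, the defining globins. The sum was 475 and 1039.7 against 615 and 650.2 CPM, mostly from Tfrc, the transferrin receptor, at 436 and 1031 against 554 and 579 CPM, which dividing cells of any type express. Vwf, a clotting protein of megakaryocytes, stood at 2.34 and 1.87 against 24.4 and 39.4 CPM (3.92 ± 0.61, 3.79 without DMSO 2) and Pf4, a platelet chemokine, at 0.506 and 0.431 against 3.78 and 2.97 CPM (2.83 ± 0.56, 2.75 without DMSO 2). The platelet glycoproteins Gp1bb and Gp1ba had 3 reads against 112 (ratio 41.5, exact binomial interval 13.8 to 204) and 1.44 and 1.63 against 2.72 and 4.10 CPM (1.15 ± 0.32, 1.26 without DMSO 2). These 4 genes were higher with EPZ5676, and Gp1ba lost its call without EPZ 2. The log2 change of Gp1bb was 5.24, and 5.94 without DMSO 2. Itga2b, the integrin CD41 and a defining megakaryocyte marker, stood at 1.75 and 0.240 against 1.70 and 1.08 CPM, overlapped and was not called, and passed the test without DMSO 1 (2.51). Without DMSO 1 7 members were higher and 1 lower, and with 4 libraries 3 and 0. Car2, a carbonic anhydrase, stood at 30.1 and 2.64 against 22.03 and 17.4 CPM, with overlapping groups.

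Of mast cell, basophil and eosinophil genes 7 of 22 were tested, 4 rose and 1 fell, and 8 were at 0, including Cpa3, a defining mast cell protease. The sum was 80.2 and 69.99 against 225 and 215 CPM, mostly from Csf2rb2, a subunit of the interleukin-3 receptor with a close copy, at 47.1 and 38.9 against 159 and 133 CPM (1.76 ± 0.17, 1.66 without DMSO 2). Hgf, hepatocyte growth factor, stood at 2.06 and 4.27 against 25.7 and 36.95 CPM (3.31 ± 0.45, 3.94 without DMSO 2) and Siglec5, a sialic acid receptor, at 12.9 and 10.3 against 30.7 and 28.7 CPM (1.36 ± 0.18, 1.23 without DMSO 2). Both were higher with EPZ5676, whereas Mcpt8, a defining basophil protease, was lower at 8.72 and 9.97 against 3.40 and 3.91 CPM (−1.35 ± 0.20, −1.23 without DMSO 2). Ms4a2, a subunit of the IgE receptor, at 8.72 and 3.21 against 3.98 and 3.72 CPM and Ccr3, an eosinophil receptor, at 0.0389 and 0.959 against 0.243 and 0.0942 CPM overlapped. The eosinophil granule genes Prg2 and Epx had 18 and 4 reads with DMSO and 8 and 1 with EPZ5676.

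Of lymphoid genes 9 of 27 were tested, 3 rose, 2 fell and 13 were at 0, with Cd3e, the defining T cell marker, among the latter. The sum was 21.4 and 50.6 against 38.03 and 41.05 CPM, and Bcl11b, a T cell transcription factor, was the most abundant gene in all libraries but DMSO 2 at 11.2 and 0.288 against 17.6 and 17.9 CPM. Its level was near 0 in DMSO 2, where most of the sum came from Igll1, a surrogate light chain of B cell precursors (chosen after its values were seen), at 0.273 and 34.4 against 0.194 and 0.377 CPM. The change of Igll1 was −5.89, and 0.09 without DMSO 2, with overlapping groups and a call lost without DMSO 2, EPZ 1 or EPZ 2. Bcl11b passed the test without DMSO 1 (5.92). Il7r, the interleukin-7 receptor, stood at 0.234 and 1.01 against 7.03 and 9.89 CPM (3.79 ± 0.74, 5.17 without DMSO 2), Cd3d, of the T cell receptor complex, at 0.117 and 0.0479 against 1.26 and 1.46 CPM (3.92 ± 1.03, 3.51 without DMSO 2) and Cd79b, of the B cell receptor complex, at 2.69 and 3.36 against 6.99 and 7.11 CPM (1.22 ± 0.32, 1.41 without DMSO 2). Lck, a T cell kinase, fell, at 4.87 and 4.12 against 1.89 and 1.65 CPM (−1.34 ± 0.29, −1.43 without DMSO 2), and Thy1, a T cell surface antigen, at 1.21 and 4.79 against 1.21 and 0.706 CPM was not called. The calls of Cd3d, Cd79b and Lck were lost without EPZ 2, those of Cd3d and Cd79b without EPZ 1, and that of Cd3d without DMSO 2. Without EPZ 2 1 member rose and 0 fell.

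Of dendritic cell genes 6 of 19 were tested, 0 rose, 2 fell and 2 were at 0, among them Siglech, the defining plasmacytoid marker. The sum was 93.5 and 85.4 against 51.04 and 56.2 CPM, most of it from Bst2 and from Tcf4, a transcription factor, at 44.1 and 61.5 against 19.3 and 21.1 CPM (−1.38 ± 0.19, −1.10 without DMSO 2). Ccr7, a homing receptor, had 39 reads with DMSO and 0 with EPZ5676, at least 11.7-fold lower. Bst2, also an interferon gene, at 45.3 and 19.9 against 29.01 and 32.01 CPM and Cox6a2, a cytochrome oxidase subunit, at 1.56 and 0.479 against 0.485 and 0.330 CPM overlapped. Of stromal and endothelial genes 10 of 24 were tested, 4 rose and 2 fell, 9 were at 0, and the sum was 41.1 and 308 against 69.6 and 64.9 CPM. DMSO 2 was the high library through Col6a3, a collagen that stood at 3.19 and 244 against 1.65 and 2.21 CPM (−5.99 ± 1.61, −0.70 without DMSO 2), was chosen after its values were seen and lost its call without DMSO 2, EPZ 1 or EPZ 2. Col1a2, a defining collagen, was at 0, whereas its partner Col1a1 stood at 0.273 and 0.288 against 6.16 and 18.9 CPM (5.46 ± 0.89, 5.52 without DMSO 2). Pecam1, the adhesion molecule CD31, stood at 23.1 and 43.7 against 7.47 and 6.64 CPM (−2.24 ± 0.36, −1.69 without DMSO 2), and Acta2, smooth muscle actin, at 7.87 and 7.38 against 26.6 and 17.9 CPM (1.55 ± 0.28, 1.53 without DMSO 2). Kdr, an endothelial growth factor receptor, had 0 reads with DMSO and 63 with EPZ5676, at least 23.4-fold higher. Fbn1 at 2.45 and 6.38 against 10.4 and 4.61 CPM and Col5a1 at 0.428 and 1.49 against 6.11 and 0.659 CPM, both matrix genes, overlapped. Lists with genes of 3 reads or fewer in a group had the same medians when these were set to their bounds.

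At the threshold of 0.05 stood Snrpd1, a spliceosome protein, just inside at 96.5 and 89.6 against 56.8 and 74.9 CPM (−0.50 ± 0.17, −0.53 without DMSO 2, adjusted p = 0.0499), and Nupl2, a nucleoporin, just outside at 16.1 and 28.96 against 12.6 and 13.5 CPM (−0.79 ± 0.27, −0.28 without DMSO 2, adjusted p = 0.0501, both in edgeR's quasi-likelihood test after Benjamini-Hochberg). Both were lower in each EPZ library than in either DMSO library, and Snrpd1 lost its call without DMSO 1, DMSO 2 or EPZ 1 (−0.31 without EPZ 1).

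Leaving out a library also brought calls. Without DMSO 1, when 6808 genes were called, named genes that passed the test beyond those given above were Pbx3, Flt3, Mllt10, Aff1, Cd34, Tcn2, Serpinb1a, Rac1, Grn, Eif2ak2, Dkc1, Ubtf, Atf4, Ccnd3, Bnip3l, Tfrc, Car2, Ccr3, Thy1 and Nupl2. Without DMSO 2 they were Ddx3x, Ms4a3, Vav1, Ms4a2 and Cox6a2, without EPZ 1 Pim1 and Ccng1, and without EPZ 2 Cd34. Total-count scaling turned the sign of Ddx3x, Mllt3, Lamp1, Eif2ak2, Top2a and Bak1, none of them called. Among genes without a call the sign also turned for F13a1, Aldoa, Pkm, H2-K1, Bst2, Hoxa10, Ly6c2, Kit, Ms4a2, Ddx3x, Cdkn1a and Xist without DMSO 1, and for Aff1, Car2, Ccr3, Eif2ak2, Itga2b, Tfrc and Ubtf without DMSO 2. It turned for Col5a1, Kit, Mllt3 and Top2a without EPZ 1, and for Aldoa, Pkm, Bak1, Cdkn1a, Ddx3x, Lamp1 and Xist without EPZ 2.

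The fit of the 4 libraries alone did not call the MLL fusion targets Hoxa9, Mef2c, Myc and Satb1 or the elongation genes Dot1l, Leo1, Wdr61, Mllt1 and Ell3. It also left uncalled Mpo, S100a9, Csf1r, Ctsd, Nlrc5, Oas2, Spi1, Wdr12, Ncl, Bcat1, Mcm6, E2f2, Mki67, Trp53inp1, Bcl2l1, Bmf, Dhcr7, Mvd, Fdps, Slc2a3, Pfkm, Gp1ba, Mcpt8, Cd79b, Lck, Col6a3, Itsn1 and Snrpd1, and Igll1 was not tested in it.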

How the data were processed

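RNA of 10 MAF9 libraries, 2 for each of 5 conditions, had been purified with RNeasy columns and DNase and made into TruSeq libraries. The read counts per gene are as the authors deposited them. By their notes reads were aligned to mm9 with TopHat2 and counted with Subread, and DESeq was used for their own comparisons. Here the table of 24015 genes was read, 17450 had at least 1 read, and filterByExpr kept 12971. TMM scaling and the quasi-likelihood F test of edgeR 4.0.16 (R 4.3.3) were run on 1 fit of all 10 libraries with 1 coefficient per condition, so that the spread is estimated over 5 conditions. Contrasts were EPZ5676 against DMSO, MM-401, MI and iBET, with Benjamini-Hochberg adjustment at 0.05. Alternatives were total-count scaling, DESeq2 1.42.0 size factors and its Wald test, no filter, at least 5 CPM in 2 libraries, a fit of 4 libraries, a replicate block and each library left out. The fit was tested on simulated data drawn from the means of the 12971 genes: of 100 genes set to 4-fold 83% were recovered and of 100 set to 2-fold 30%, with 5 false calls among 118. In the simulation no other gene differed between EPZ and DMSO, and both DMSO libraries had the same means. In the data 4942 genes were called, and the DMSO libraries differed by more than 2-fold in 19.3% of genes. The recovered shares and false calls therefore hold for the simulated setting and were not measured for these data. A gene without a call may still differ by 2-fold.

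The members and the 24 gene lists (749 genes, 636 tested) were chosen with earlier results of these data known. No gene of that name was counted for 4 further entries. Named genes follow a rule: the 10 genes in each direction with the largest gap among genes called and apart whose higher group averaged 5 CPM or more, in each list up to 4 called and apart members with the largest gap and up to 2 of the most abundant members not called, known DOT1L, MLL fusion, granule and cell cycle genes, the 5 genes in each direction with the smallest adjusted p against each other inhibitor, and the genes just inside and outside the threshold. The gap is log2 of the lower EPZ library plus 0.5 CPM over the higher DMSO library plus 0.5 CPM, or the mirror of it. Cell type markers and some genes that are the most abundant of a list are named beyond that, and some genes that the rule selects are not reported here. A group at 0 reads was set to 3 reads over the group, and ratios at 1 to 3 reads carry an exact binomial interval of 95%. Promoter windows were taken with Python 3.11.15 from the RefSeq annotation and sequence of GRCm38.p6.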

Additional observations from a re-analysis of the deposited data

How the results depend on the processing

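Leaving out 1 library in turn moved the number of genes called between EPZ5676 and DMSO from 4942 to between 2639 (without EPZ 2) and 6808 (without DMSO 1), and a fit of the 4 libraries alone called 1174. Called list members went from 340 to between 226 and 417, and to 158 in the fit of 4 libraries. Against MM-401 the calls went from 4320 to between 1556 and 2612, and against iBET from 4879 to between 2248 and 3247, whereas fits of the 4 libraries of these comparisons called 5702 and 5583. Against MI 2 genes became 0 without any 1 of the EPZ and MI libraries and with total counts, 7 without a filter, 4 with the replicate block and 155 with the DESeq2 Wald test. Total-count scaling left 34.7% of the calls against DMSO higher, where TMM gave 49.2%.

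By the labels replicate libraries share only a number. The correlation of the deviations of same-numbered libraries was 0.317 between DMSO and EPZ, and 0.278 to 0.666 over all pairs of conditions. With the replicate block 6180 genes were called against DMSO, 5635 against MM-401 and 6200 against iBET, and glycolysis genes went from 2 higher and 2 lower to 2 and 9. The summed level of glycolysis genes was lower in replicate 2 than in replicate 1 of every condition.

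The change of Cdkn1a was −0.81 without DMSO 2 and 1.28 without DMSO 1, that of Xist −1.09 and 8.13, and that of Igll1 0.0913 and −6.88. The Y-linked reads and Xist of DMSO 2 differ from those of the other libraries, and whether another source of cells or other handling lies behind its differences was not tested. With 2 libraries a group, the p-values lean on the spread shared by 5 conditions. Proteins, H3K79 methylation and the cells of each type were not measured here.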
